A study of Mus musculus with 6 samples.

Results

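RNA recovered with an antibody to the poly(A)-binding protein PABP1 was compared with the total RNA of the same kind of culture. The comparison takes, by their titles, the 2 arrays of the PABP1 immunoprecipitation (IP) and the 2 arrays of total input, 4 of the 6 arrays in the series. PABP1 coats the poly(A) tail of mRNAs in the cytoplasm, where it contacts the cap-binding initiation complex, helps translation and limits decay. Nearly all mRNAs carry such a tail. The known exceptions are the replication-dependent histone mRNAs, which end in a stem-loop. Some long non-coding RNAs also end in a structure other than a tail. Others are kept in the nucleus, which does not by itself mean that they lack a tail.

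All arrays came from mouse embryonic stem (ES) cells derived from the V6.5 line (strain C57BL/6 129SV mixed) that carried Dazl-GFP-V5, a tagged form of the germ-cell RNA-binding protein DAZL. The cells were depleted of feeders, grown for 12 days in Differentiation Medium and are called primordial germ cells (PGCs) in the labels. No sorting step is described, so cells of other kinds in the culture and germ cells cannot be told apart. Protein was crosslinked to RNA by ultraviolet light, the lysate was precipitated with anti-PABP1, and the RNA was freed with proteinase K; input RNA saw no antibody (ip antibody none). In the study both groups served as controls for an anti-GFP IP of the tagged DAZL, whose 2 arrays enter here to estimate the spread and in 1 comparison near the end. The sources used here do not say whether the replicates are separate cultures, so the p-values speak of array-to-array spread alone, which may be technical. Nor do they say how the RNA was primed for labelling, so how well the arrays read RNA without a poly(A) tail is not known.

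Each array held 41174 probes outside the controls. The share of spots flagged well above background ran from 41.5% to 52.6%, with 0 saturated spots. Over the 14927 genes tested, each by its brightest kept probe, the log2 signals of the replicates correlated at 0.992 for input and 0.982 for PABP1 IP. Between the groups the values were 0.904 to 0.916. Both input arrays and PABP1 IP array 1 lay on 1 slide, and PABP1 IP array 2 lay on the other. Beside each gene group, its position is therefore also given with slide as a block and within the shared slide, where PABP1 IP has 1 array. Of 9 PGC markers 7 were tested (Prdm14 and Ddx4 were not), and all 7 were well above background on both input arrays; the sum of their signals came to 26.1 and 24.2 in input and 25.1 and 26.4 in PABP1 IP. All 5 pluripotency markers were tested, with a sum of 183 and 181 in input and 304 and 334 in PABP1 IP. Of 6 cardiac and smooth muscle markers 5 were tested, with a sum of 50.1 and 52.8 in input and 107 and 102 in PABP1 IP. Neural markers (3 of 5 tested) summed to 9.7 and 8.1 against 11.4 and 9.0. Those of fibroblasts, endothelium and blood (4 of 7) summed to 29.2 and 40.5 against 40.6 and 37.4. Visceral endoderm (2 of 6) gave 0.515 and 0.501 against 0.975 and 0.790. A sum follows its brightest members. In a wider list of cardiac and smooth muscle genes, 5 of 21 (23.8%) were higher in PABP1 IP and 2 (9.52%) lower. For all genes these shares were 30.2% and 23.7%. The part of these cell types in the results was not tested.

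Signals are given relative to the 75th percentile of each array, so a signal of 1 lies at that percentile, and a difference is the log2 signal in PABP1 IP minus that in input, ± the standard error from limma, with 2 arrays per group. Of 14927 genes tested, 4511 (30.2%) were higher in PABP1 IP, 3543 (23.7%) were lower and 6873 did not pass limma's test at a Benjamini-Hochberg adjusted p of 0.05. At least 4-fold differences past the threshold were found for 842 genes (5.64%) in the higher direction and 814 (5.45%) in the lower. The arrays of the groups did not overlap for 11720 genes (78.5%). The number of arrays limits the counts: without input array 1 they were 2912 higher and 2175 lower, and without input array 2 they were 2824 and 2198.

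Higher and lower are relative to the rest of the array throughout. Scaled to the spike-in controls instead, every difference moves up by 2.27, and 12708 genes were then higher and 217 lower; a gene described below as lower by less than that amount is above input on that scale. The position of a gene group, the median difference of its tested members minus the median of all genes, does not depend on such a constant. The median difference of all genes was 0.13, with quartiles at -0.70 and 0.97. With no filter on dim probes that median was -0.48 over 27671 genes, a shift of -0.61. This change of reference raises every position under that setting by as much, while the members' own differences hardly change. Gene groups are described by such positions and by counts set beside the 30.2% and 23.7% of all genes; no test was run over a group. Examples were mostly taken among genes whose call held without each array in turn.

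The largest differences among genes with a standard symbol joined single mRNAs of unrelated function. Tm2d1, which encodes a small transmembrane protein, had signals of 1.34 and 1.41 on the input arrays and 25.9 and 24.9 on the PABP1 IP arrays. The difference of 4.21 ± 0.15 was 18.5-fold (limma adjusted p = 0.000861). Tmem126a, a mitochondrial inner membrane protein that takes part in complex I assembly, had 2.04 and 1.74 in input and 28.3 and 27.8 in PABP1 IP, a difference of 3.90 ± 0.16 (adjusted p = 0.000861). In neither gene did the arrays of the groups come near each other. Rpa3, the smallest subunit of the single-stranded DNA-binding protein RPA, had 0.909 and 2.22 against 19.1 and 21.4, a difference of 3.83 ± 0.43 (adjusted p = 0.0018). Its input arrays lay apart, but both were far below the PABP1 IP arrays. Pde6d, a chaperone for prenylated proteins, was higher by 3.50 ± 0.19 (adjusted p = 0.000861).

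In the lower direction Marf1, a regulator of meiosis in oocytes, had 5.75 and 7.05 on the input arrays and 0.0399 and 0.0504 on the PABP1 IP arrays, where it was well above background on 1 of 2. Its difference was -7.15 ± 0.30 (adjusted p = 0.000861), and its other kept probe gave -4.54. Tpr, the filament protein of the nuclear pore basket, had 16.6 and 18.3 in input and 0.234 and 0.317 in PABP1 IP, a difference of -6.0 ± 0.38 (adjusted p = 0.000861); its other probe gave -1.77, which did not pass. Golgb1, the Golgi tethering protein giantin, had 4.66 and 7.08 against 0.161 and 0.0674 and differed by -5.79 ± 0.79 (adjusted p = 0.00303), with other probes at -2.27 and -6.30. Gdap10 was at least 44.5-fold lower (adjusted p = 0.000861), with no PABP1 IP array well above background. The probes of Marf1 and Golgb1 were all lower, whereas the size of the difference depended on the probe.

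Nuclear non-coding RNAs lay farthest below the median of all genes among the 16 gene groups followed in detail. None of 9 tested was higher and 6 were lower, at least 4-fold each; the group's position was -2.86 (-2.94 with slide as a block and -3.04 within the shared slide). Malat1, an abundant RNA of nuclear speckles whose 3′ end is a triple helix in place of a poly(A) tail, had signals of 20.7 and 29.2 in input and 0.0419 and 0.0352 in PABP1 IP, and neither PABP1 IP array was well above background. It was at least 387-fold lower (adjusted p = 0.000861); such a bound sets the mean of the bright group against the higher, on each array, of the dim probe's own value and the faintest signal that still cleared background. The other Malat1 probes gave -5.46 and -4.15. All 3 probes of Malat1 were lower.

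Neat1, the scaffold of paraspeckles, had 30.3 and 30.9 in input and 4.44 and 4.74 in PABP1 IP, a difference of -2.74 ± 0.16 (adjusted p = 0.000861). Firre, a largely nuclear RNA from the X chromosome, had 8.32 and 9.50 against 1.06 and 0.944 and differed by -3.15 ± 0.21 (adjusted p = 0.000898). Meg3, an imprinted RNA of the Dlk1 locus, had 50.5 and 55.8 against 10.7 and 8.38 and differed by -2.49 ± 0.20 (adjusted p = 0.00103), with -2.68 from its other probe. All 3 were still well above background on both PABP1 IP arrays, unlike Malat1. For Snhg14, the long host transcript of the imprinted Prader-Willi region, the drop was at least 20.6-fold (adjusted p = 0.00091). For Mirg, which lies downstream of Meg3, it was at least 8.22-fold (adjusted p = 0.00269). H19, an imprinted RNA that is cytoplasmic and polyadenylated, had 0.674 and 0.957 in input and 1.41 and 1.66 in PABP1 IP, a difference of 0.93 ± 0.44 that did not pass (adjusted p = 0.127).

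Non-coding RNAs that are cytoplasmic or host small nucleolar RNAs (snoRNAs) in their introns gave both directions. Of 13 tested, 6 were higher and 4 lower, with a position of 0.70 (0.61 with slide as a block and 0.60 within the shared slide); without input array 1, 3 were higher. With the mean of a gene's probes the position turned to -0.21, with 4 higher and 5 lower; it was 0.23 after quantile normalization and 0.05 in the authors' deposited table. Zfas1, a snoRNA host spliced into a stable cytoplasmic RNA, had 118 and 128 in input and 618 and 499 in PABP1 IP, a difference of 2.18 ± 0.19 (adjusted p = 0.00111). Snhg8, another host, had 4.45 and 4.73 against 0.124 and 0.149, a difference of -5.08 ± 0.17 (adjusted p = 0.000861). The groups did not overlap for either RNA. Gas5 rose by 1.53 ± 0.15 on its brightest probe (adjusted p = 0.00133) and fell by 1.10 on the other; the mean of its probes was 0.22 and did not pass (adjusted p = 0.273).

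Histone genes went both ways. Among the replication-dependent genes, whose mRNAs end in a stem-loop during S phase, 14 of 26 tested were lower and 6 higher, and the position was -1.47 (-1.31 with slide as a block and -1.23 within the shared slide). Without input array 1, and likewise without input array 2, 9 were lower and 3 higher. Many of these genes are near-identical copies, so a probe may read several of them and the single-gene values are uncertain. By type, 4 of 5 replication-dependent linker histones were lower with a median of -2.67, as were 6 of 8 H2A genes (-1.60) and 4 of 5 H4 genes (-1.37). H2B had a median of 0.20 over 5 genes and H3 of 0.67 over 3, with no gene lower in either.

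H1f4, a linker histone, had signals of 33.1 and 32.4 in input and 5.01 and 2.13 in PABP1 IP, a difference of -3.33 ± 0.50 (adjusted p = 0.00401). H1f5 had 7.95 and 7.91 against 1.05 and 0.965 and differed by -2.98 ± 0.15 (adjusted p = 0.000861). H1f3 had 7.04 and 6.57 against 1.32 and 0.866 and differed by -2.67 ± 0.24 (adjusted p = 0.00121). The input arrays of each of these 3 lay close together and well above the PABP1 IP arrays. Of the replication-dependent genes that went the other way, H2bc4 had 1.10 and 1.26 in input and 3.83 and 3.23 in PABP1 IP, a difference of 1.58 ± 0.20 (adjusted p = 0.0025). H4c9 had 2.98 and 3.21 against 7.78 and 7.68, a difference of 1.32 ± 0.15 (adjusted p = 0.00193).

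Most replication-independent histones, which are expressed outside S phase from ordinary polyadenylated mRNAs, were higher. Of 9 tested, 7 were higher and 1 lower, with a position of 1.43 (1.18 with slide as a block and 1.22 within the shared slide). H2az1, the variant H2A.Z, had 176 and 153 in input and 624 and 637 in PABP1 IP, a difference of 1.94 ± 0.23 (adjusted p = 0.00202). H1f0, the linker histone of resting cells, had 4.48 and 3.94 against 17.2 and 13.2, a difference of 1.85 ± 0.20 (adjusted p = 0.00169). H3f3a, which encodes the variant H3.3, had 53.6 and 48.5 against 186 and 151, a difference of 1.72 ± 0.18 (adjusted p = 0.00155). The lower gene was H1f10, at -4.13 ± 1.04 (adjusted p = 0.0217), with its other probe higher by 0.98; its call was lost without input array 1 (adjusted p = 0.0744), input array 2 (0.0896) or PABP1 IP array 2 (0.0838), and with the mean of its probes (-1.57, adjusted p = 0.0654). H3f3b, the second H3.3 gene, rose by 1.21 ± 0.24 (adjusted p = 0.01), a call lost without input array 1 (0.0523) or input array 2 (0.0609), after quantile normalization (0.51, adjusted p = 0.161) and after cyclic loess (0.63, adjusted p = 0.0789). H3f3a, H3f3b and Firre were chosen after their values were seen. The plot of signals by array shows these RNAs side by side.

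**Figure D1:**
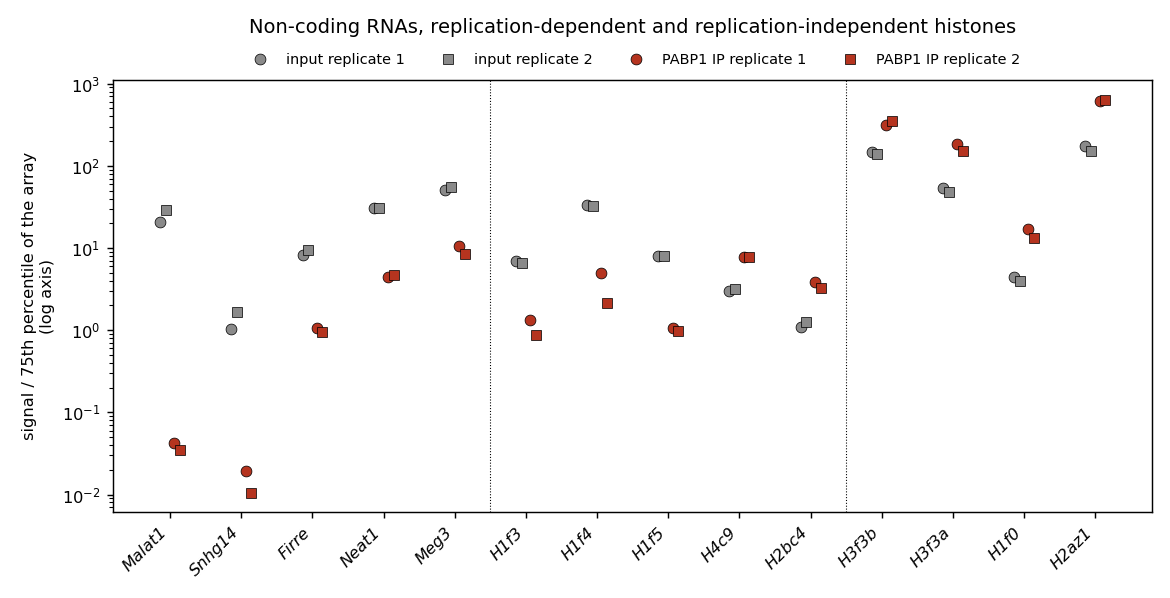
Signal on each of the 2 input and 2 PABP1 IP arrays, relative to the 75th percentile of the array on a log axis, for 5 nuclear non-coding RNAs, 5 replication-dependent histone genes and 4 replication-independent histone genes. The PABP1 IP arrays lie below input for the nuclear RNAs and for H1f3, H1f4 and H1f5, and above input for the 4 replication-independent histones shown, H4c9 and H2bc4.

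Most nuclear-encoded mRNAs of the respiratory chain, the mitochondrial ribosome and the import machinery were higher in PABP1 IP. In oxidative phosphorylation, whose subunits build the respiratory chain and the ATP synthase, 65 of 83 tested genes were higher and 2 lower, with a position of 1.08 (1.00 with slide as a block and 1.10 within the shared slide). Among mitochondrial ribosomal proteins 56 of 75 were higher and 0 lower, with a position of 1.03 (0.93 and 1.02). In mitochondrial import 25 of 32 were higher and 2 lower, with a position of 1.49 (1.40 and 1.44). These shares stand beside 30.2% and 23.7% of all genes. After quantile normalization 41 of the 83 oxidative phosphorylation genes were higher and 6 lower, and after cyclic loess 49 and 7. The few lower calls in oxidative phosphorylation were 0 without input array 1 and 1 without any other array, and those in import were 0 without either input array and 1 without PABP1 IP array 2.

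Cox6b1, a small subunit of cytochrome c oxidase, had 7.23 and 7.82 in input and 47.7 and 40.7 in PABP1 IP, a difference of 2.55 ± 0.17 (adjusted p = 0.000877). Atp5l, subunit g of the ATP synthase, had 103 and 95.9 against 624 and 475, a difference of 2.46 ± 0.19 (adjusted p = 0.000973). Ndufs8, an iron-sulfur subunit of complex I, had 2.65 and 2.77 against 14.1 and 23.3, a difference of 2.74 ± 0.39 (adjusted p = 0.00334). For all 3 the PABP1 IP arrays were above both input arrays. The large complex I subunit Ndufs1 went the other way, with 36.5 and 33.3 in input and 19.4 and 16.6 in PABP1 IP, a difference of -0.96 ± 0.18 (adjusted p = 0.00773) that was 1.31 on the spike-in scale and did not pass without input array 1 (0.0603).

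Of the mitochondrial ribosome, Mrps21 had 5.50 and 5.22 in input and 33.1 and 30.4 in PABP1 IP, a difference of 2.56 ± 0.16 (adjusted p = 0.000861). Mrpl30 had 8.78 and 7.98 against 49.5 and 47.0, a difference of 2.53 ± 0.15 (adjusted p = 0.000861). Mrps36, which is in this list and carries the name of a mitochondrial ribosomal protein, was higher by 2.45 ± 0.16 (adjusted p = 0.000873). The lowest difference in this list was 0.08, so no mitochondrial ribosomal mRNA was below input on the probe that stands for it. Tomm20, the import receptor of the outer membrane, had 71.8 and 63.0 against 472 and 468, a difference of 2.81 ± 0.19 (adjusted p = 0.000898) with 1.75 from its other probe. Timm8a2, a small chaperone of the intermembrane space, was higher by 2.73 ± 0.17 (adjusted p = 0.000861).

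The tricarboxylic acid cycle, the central oxidative pathway of the matrix, lay near the median of all genes, but not under every setting. Of 21 tested genes 8 were higher and 3 lower, with a position of -0.01 (-0.03 with slide as a block and 0.00 within the shared slide). The lower count was 0 without input array 1 and 1 without input array 2 or PABP1 IP array 2. The position was 0.69 after normexp, with 13 higher and 1 lower, 0.31 with the mean of a gene's probes and 0.57 in the authors' deposited table. With no filter on dim probes it was 0.60, through the change of reference described above. Its highest members were subunits of succinate dehydrogenase, which belongs to the respiratory chain as well. Sdhb had 14.6 and 12.3 in input and 50.5 and 51.5 in PABP1 IP, a difference of 1.93 ± 0.19 (adjusted p = 0.00136), and Sdhd was higher by 1.87 ± 0.30 (adjusted p = 0.00514). The difference between the cycle and the respiratory chain was not tested.

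Several cytosolic families were above the median as well. Ubiquitin-conjugating enzymes, the E2 class that carries activated ubiquitin to its targets, were higher in 21 of 30 tested genes and lower in 2, with a position of 1.41 (1.31 with slide as a block and 1.28 within the shared slide). Ube2a, the E2 of histone H2B ubiquitination, had 6.69 and 6.13 in input and 42.5 and 34.9 in PABP1 IP, a difference of 2.59 ± 0.17 (adjusted p = 0.000898). Ube2w was higher by 3.14 ± 0.39 (adjusted p = 0.00234). Ube2o, an unusually large E2 that also acts as a ligase, had 66.5 and 64.2 against 15.2 and 14.2, a difference of -2.15 ± 0.15 (adjusted p = 0.00091) that was 0.12 on the spike-in scale; its other probe gave -4.06. Without input array 1, input array 2 or PABP1 IP array 2, 1 E2 was lower.

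Rab GTPases, the small switches of vesicle traffic, were higher in 31 of 52 genes and lower in 2, with a position of 0.77 (0.65 with slide as a block and 0.66 within the shared slide). Without input array 2, 20 were higher, and without any of input array 1, input array 2 and PABP1 IP array 1, 1 was lower. Rab4a, of the early recycling endosome, had 2.61 and 2.36 in input and 13.2 and 15.1 in PABP1 IP, a difference of 2.51 ± 0.22 (adjusted p = 0.00118). Rab28 was higher by 2.63 ± 0.15 (adjusted p = 0.000861). Rab22a fell by 1.97 ± 0.16 on its brightest probe (adjusted p = 0.001), or was 0.30 above input on the spike-in scale, whereas its other probes gave 1.50 and 0.33 and the mean of its probes was -0.04 (adjusted p = 0.831). The plot of list members shows how far the groups lie apart and how widely the members of each spread.

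**Figure D2:**
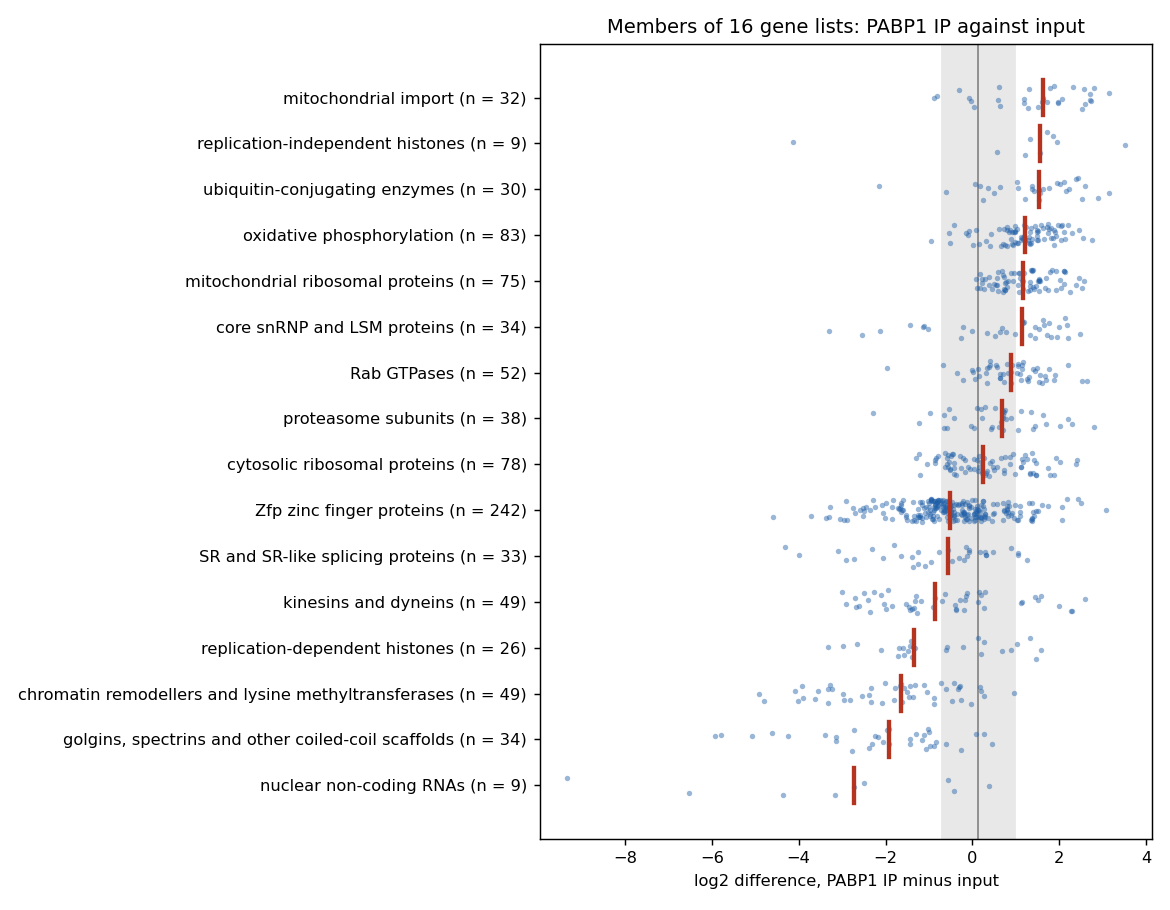
Log2 difference, PABP1 IP minus input, of every tested member of 16 gene groups, with a point per gene, a red bar at the group's median and a grey band over the middle 50% of all genes. Mitochondrial import, replication-independent histones and ubiquitin-conjugating enzymes lie highest, while nuclear non-coding RNAs and the golgins and other scaffolds lie lowest.

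Among mRNAs below the median, those of chromatin regulators had a median difference of -1.63, below the lower quartile of all genes. Of 49 chromatin remodellers and lysine methyltransferases tested, 38 were lower and 1 higher, with a position of -1.76 (-1.85 with slide as a block and -1.78 within the shared slide). Without input array 2, 0 were higher. Kmt2c, a histone H3 lysine methyltransferase of enhancers, had 13.6 and 14.6 in input and 0.573 and 0.447 in PABP1 IP, a difference of -4.80 ± 0.33 (adjusted p = 0.000898), and its other probes gave -2.32 and -4.19. Baz2b, a bromodomain protein, had 2.04 and 2.49 against 0.0587 and 0.0944, a difference of -4.92 ± 0.38 (adjusted p = 0.000982). Both groups of arrays were far apart for each gene. For 24 of these genes every kept probe was lower, any gene with 1 kept probe included. In the authors' deposited table, whose group means are scaled to the median of each array, the position of this group was -0.77.

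Golgins, spectrins and other scaffolds with long coiled coils lay lower still, with 25 of 34 lower, 0 higher and a position of -2.05 (-2.15 with slide as a block and -2.27 within the shared slide). Pcm1, the scaffold of centriolar satellites, had 2.64 and 3.72 in input and 0.106 and 0.0817 in PABP1 IP, a difference of -5.07 ± 0.29 (adjusted p = 0.000861), with other probes at -2.10 and -2.65. Giantin, given above, belongs here too.

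SR and SR-like splicing proteins, which carry runs of arginine and serine, were lower in 17 of 33 genes and higher in 3, with a position of -0.70 (-0.80 with slide as a block and -0.95 within the shared slide). In the authors' deposited table the position was -0.13, with 15 of 33 genes above the median of all genes. Son, a large speckle protein, had 215 and 187 in input and 10.9 and 9.44 in PABP1 IP, a difference of -4.31 ± 0.17 (adjusted p = 0.000861). Its other probes gave -1.25 and -0.37. Luc7l3, a partner of the U1 snRNP, had 54.1 and 55.8 against 6.83 and 6.00, a difference of -3.10 ± 0.24 (adjusted p = 0.00099), and Srek1 was lower by a difference of -4.0 ± 0.45 (adjusted p = 0.00187). Srsf9, one of the smallest SR proteins, had 51.0 and 44.9 against 119 and 108, a difference of 1.25 ± 0.20 (adjusted p = 0.005). The groups did not overlap for any of these genes.

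Zinc finger proteins named Zfp, most of them DNA-binding repressors, were lower in 101 of 242 genes and higher in 31, with a position of -0.64 (-0.78 with slide as a block and -0.75 within the shared slide). These counts rested on the input arrays: without input array 1, 50 were lower and 16 higher, and without input array 2, 48 and 16. Scaled to the median of all probes 61 were lower; with dim probes kept, 57 were lower and 16 higher. The position was -0.27 in the authors' deposited table. Zfp706, a very small member, had 12.5 and 11.0 in input and 88.5 and 112 in PABP1 IP, a difference of 3.08 ± 0.25 (adjusted p = 0.000997), with 2.99 from its other probe. Zfp644 had 1.49 and 1.65 against 0.119 and 0.119, a difference of -3.72 ± 0.15 (adjusted p = 0.000861), whereas its other probes gave -0.26 and 0.03. The probes of Zfp706 gave nearly the same difference, those of Zfp644 did not.

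Within several machines the members moved both ways. Where a subunit is called small or large below, that is background: transcript and protein lengths were not measured, and the part of size in the result was not tested. The examples were picked among genes with large differences, and Dync1h1 and Cnot1 were put in after their values were seen. The pairs shown therefore do not describe the groups as a whole. Some mRNAs of large proteins were higher, such as Fbn1, the fibrillin of elastic fibres, by at least 4.39-fold (adjusted p = 0.00108, a call lost after normexp at 0.14), and the collagen Col6a3 by 1.49 ± 0.31 (adjusted p = 0.0119, lost without input array 1 at 0.0687). Proteasome subunits, which build the protease of the ubiquitin pathway, were higher in 20 of 38 genes and lower in 4, with a position of 0.55 (0.37 with slide as a block and 0.40 within the shared slide). Without input array 1, input array 2 or PABP1 IP array 1, 9, 10 and 11 were higher, and 2 were lower without either input array or PABP1 IP array 2. The counts were nearly even under other scalings, at 13 higher and 11 lower after quantile normalization and 11 and 10 after cyclic loess. Psma3, a ring subunit of the core particle, had 3.93 and 4.37 in input and 24.3 and 33.6 in PABP1 IP, a difference of 2.79 ± 0.26 (adjusted p = 0.00125). Psmd1, a large subunit of the regulatory particle, had 14.8 and 12.3 against 2.78 and 2.73, a difference of -2.29 ± 0.18 (adjusted p = 0.000973).

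Core proteins of the spliceosomal snRNPs and the related LSM rings were higher in 20 of 34 genes and lower in 7, with a position of 1.02 (0.86 with slide as a block and 0.91 within the shared slide). For each of these 27 genes every kept probe gave the same call, which a gene with 1 kept probe meets by default. Lsm5, a ring subunit, had 23.8 and 26.3 in input and 126 and 155 in PABP1 IP, a difference of 2.48 ± 0.22 (adjusted p = 0.00115), and Lsm8 was higher by 2.20 ± 0.16 (adjusted p = 0.000947). Sf3b3, a large U2 snRNP protein, had 8.42 and 11.5 against 1.03 and 0.958, a difference of -3.31 ± 0.21 (adjusted p = 0.000861). Snrnp200, the helicase that unwinds U4 from U6, had 71.3 and 59.1 against 16.4 and 13.6, a difference of -2.12 ± 0.20 (adjusted p = 0.00127) that was 0.15 on the spike-in scale.

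Kinesins and dyneins, the motors of microtubules, were lower in 24 of 49 genes and higher in 7, with a position of -1.0 (-0.92 with slide as a block and -1.13 within the shared slide). Without input array 1, 4 were higher. Dynll1, the dynein light chain, had 71.5 and 68.5 in input and 429 and 420 in PABP1 IP, a difference of 2.60 ± 0.17 (adjusted p = 0.000891), and the light chain Dynlrb1 was higher by 2.28 ± 0.17 (adjusted p = 0.000947). Dync1h1, the dynein heavy chain, chosen after its values were seen, had 76.4 and 66.8 against 12.7 and 9.65, a difference of -2.69 ± 0.24 (adjusted p = 0.00117); its other probe gave -4.03. Kif5b, a conventional kinesin heavy chain, had 27.7 and 29.6 against 3.55 and 3.61, a difference of -3.00 ± 0.26 (adjusted p = 0.00114). Light and heavy chains of the same dynein motor thus lay on opposite sides of input.

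The nuclear pore and lamina list was lower in 16 of 36 genes and higher in 6, with a position of -0.54 (-0.51 with slide as a block and -0.60 within the shared slide). Leaving out 1 array took the higher count to 2 (without input array 1) or 3 (without any other array). The position was -0.11 after normexp. With no filter on dim probes it was 0.06, through the change of reference described above. Nup37, a small scaffold protein, had 1.86 and 2.25 in input and 14.4 and 13.5 in PABP1 IP, a difference of 2.77 ± 0.17 (adjusted p = 0.000861). Nup43, of the same Y-shaped complex, was higher by 2.24 ± 0.21 (adjusted p = 0.00131). Ranbp2, the giant protein of the cytoplasmic filaments, had 2.56 and 3.33 against 0.542 and 0.675, a difference of -2.27 ± 0.23 (adjusted p = 0.00147). The plot of subunits sets these machines beside each other.

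**Figure D3:**
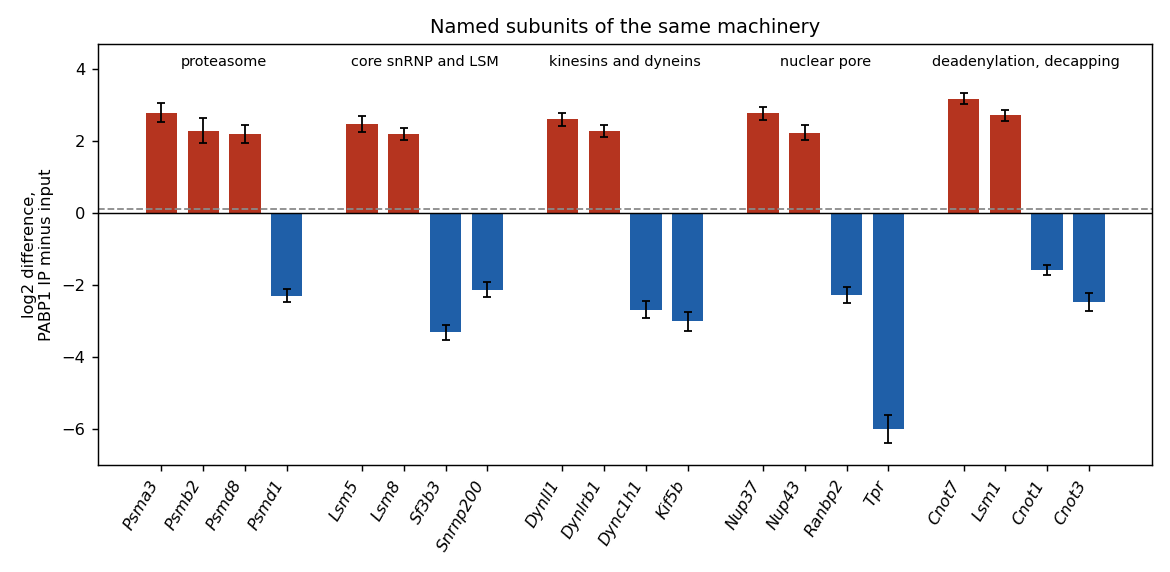
Log2 difference, PABP1 IP minus input, with the limma standard error (2 arrays per group), of named subunits of the proteasome, the core snRNP and LSM proteins, kinesins and dyneins, the nuclear pore, and deadenylation and decapping factors; the dashed line marks the median of all genes. Each machine holds subunits on both sides of the line, such as Dynll1 at 2.60 and Dync1h1 at -2.69.

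mRNAs of cytosolic ribosomal proteins are abundant, short and among the most heavily translated. Among the 16 gene groups followed in detail, they were set apart by their dependence on the array. Of 78 tested, 24 were higher and 0 lower, with a position of 0.11 (0.25 with slide as a block and 0.48 within the shared slide). Against the input mean, PABP1 IP array 1 put the group at 0.48 and PABP1 IP array 2 at -0.24. Without PABP1 IP array 1, 16 were higher and 22 lower; without input array 1, 13 were higher, and without input array 2, 11 were. The position was -0.48 after cyclic loess (23 lower) and 0.80 after normexp background correction. It was 1.17 in the authors' deposited table, with the rows of a gene averaged in place of choosing its brightest probe. The direction of this group was therefore not settled on these arrays. Some lists outside the 16 also changed side, such as the PGC markers at 0.13 on PABP1 IP array 1 and -0.10 on array 2.

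Single ribosomal protein genes were clear even so. Rpl4 had 39.7 and 34.0 in input and 222 and 170 in PABP1 IP, a difference of 2.40 ± 0.20 (adjusted p = 0.00108). Rpl29 had 215 and 204 against 1588 and 753, a difference of 2.39 ± 0.37 (adjusted p = 0.00464), with other probes at 3.66, 2.71 and 2.14. The PABP1 IP arrays of Rpl29 lay apart from each other, though both were above input. Ribosomal protein genes have many processed pseudogenes, so a probe may read more than 1 locus. The plot of positions by array shows that the other 15 groups kept their side on both PABP1 IP arrays.

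**Figure D4:**
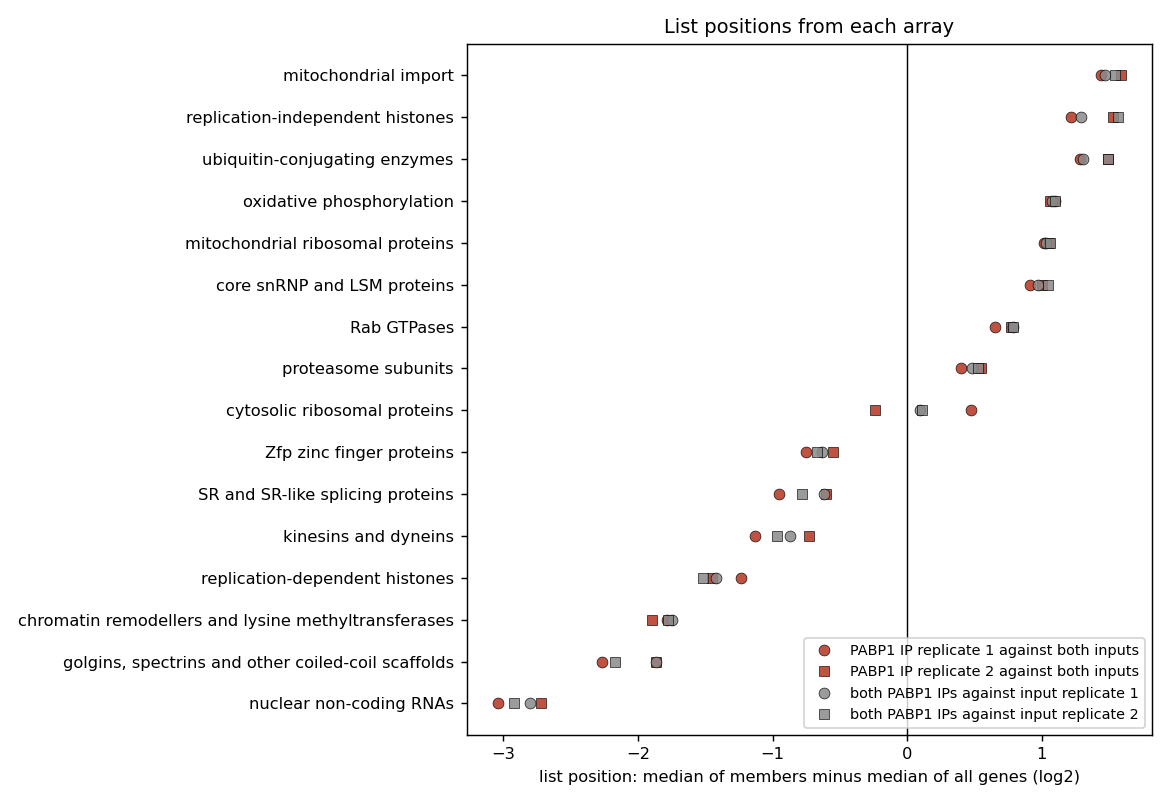
Position of 16 gene groups, the median log2 difference from the input mean minus that of all genes, given separately for PABP1 IP array 1 and PABP1 IP array 2. The cytosolic ribosomal proteins lie at 0.48 on array 1 and at -0.24 on array 2, while the remaining groups lie on the same side of 0 on both.

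Translation initiation and elongation factors were split, with 23 of 58 higher and 11 lower. The position was 0.16 (0.10 with slide as a block and 0.10 within the shared slide). It was -0.03 after quantile normalization, -0.06 after cyclic loess, 0.78 after normexp (33 higher and 6 lower) and 0.58 in the authors' deposited table. With no filter on dim probes it was 0.76, through the change of reference described above. Without input array 1, 6 were lower, and without input array 2, 5. Eef1e1, a small factor bound to the tRNA synthetase complex, had 5.93 and 5.32 in input and 43.6 and 36.1 in PABP1 IP, a difference of 2.82 ± 0.17 (adjusted p = 0.000861). Eif3i, a small WD-repeat subunit of eIF3, had 16.8 and 14.9 against 66.0 and 57.0, a difference of 1.96 ± 0.17 (adjusted p = 0.00112). Eif3c, a large subunit of the same complex, had 392 and 353 against 119 and 90.8, a difference of -1.84 ± 0.21 (adjusted p = 0.00187) that was 0.43 on the spike-in scale. Eif5b, the large GTPase that joins the ribosomal subunits, had 26.2 and 25.8 against 0.858 and 1.00, a difference of -4.81 ± 0.46 (adjusted p = 0.00132), and its 4 other probes were lower too, from -1.31 to -5.57.

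Of the mRNAs of the poly(A)-binding proteins named here, Pabpc1 and Pabpc4 were not called and Pabpc2 was higher. Pabpc1, which encodes PABP1 and whose mRNA is known to bind the protein through an A-rich stretch in its leader, had 388 and 474 in input and 660 and 228 in PABP1 IP. The PABP1 IP arrays lay on either side of the input arrays, and the difference was -0.14 ± 0.69 (adjusted p = 0.879), or 2.13 on the spike-in scale; with slide as a block it was 0.62 (adjusted p = 0.0301). Pabpc4, the inducible paralog, had 20.4 and 22.6 against 29.0 and 24.4, a difference of 0.31 ± 0.17 (adjusted p = 0.173). Pabpc2, a testis-expressed paralog, had 0.259 and 0.201 against 0.495 and 1.33, a difference of 1.83 ± 0.48 (adjusted p = 0.024). Its PABP1 IP arrays lay apart, and its call was lost without input array 1 (adjusted p = 0.0688) or input array 2 (0.11), after normexp (0.62, adjusted p = 0.0644) and when dim probes were kept (adjusted p = 0.0525). Over the list of poly(A)-binding proteins and their partners, 5 of 18 were higher and 4 lower, with a position of 0.13 (0.15 with slide as a block and 0.11 within the shared slide); 3 were higher without either input array. The side of this list was not settled: its position was -0.14 after quantile normalization, -0.06 after cyclic loess and -0.40 with the mean of a gene's probes.

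Among the partners, Paip2, a small inhibitor that displaces PABP1 from poly(A), had 18.4 and 16.8 in input and 70.6 and 70.4 in PABP1 IP, a difference of 2.0 ± 0.16 (adjusted p = 0.00099). Pan3, the adaptor of the PAN2 deadenylase that is recruited by PABP1, had 8.13 and 7.87 against 2.09 and 2.14, a difference of -1.92 ± 0.16 (adjusted p = 0.00102) that was 0.35 on the spike-in scale. Larp1, which binds PABP1 and the 5′ end of ribosomal protein mRNAs, had 12.9 and 12.0 against 3.71 and 3.25, a difference of -1.84 ± 0.23 (adjusted p = 0.00249) that was 0.43 on that scale. The replicates of each lay close together, and the groups did not overlap.

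Factors that shorten the tail and remove the cap were lower in 11 of 24 genes and higher in 8, with a position of -0.65 (-0.73 with slide as a block and -0.76 within the shared slide). Without input array 1, 6 were lower and 5 higher; without input array 2, 7 and 4; without PABP1 IP array 1, 7 were lower. The position was -0.04 after normexp, -0.34 with the mean of a gene's probes and -0.24 in the authors' deposited table. It was also -0.04 when dim probes were kept, through the change of reference described above. Cnot7, a catalytic deadenylase of the CCR4-NOT complex, had 0.318 and 0.347 in input and 3.09 and 2.94 in PABP1 IP, a difference of 3.18 ± 0.15 (adjusted p = 0.000861). Lsm1, of the ring that marks deadenylated mRNAs for decapping, had 8.84 and 8.14 against 58.6 and 52.9, a difference of 2.71 ± 0.16 (adjusted p = 0.000861). Dcp2, the decapping enzyme, had 2.85 and 2.84 against 19.1 and 18.0, a difference of 2.70 ± 0.15 (adjusted p = 0.000861), with 1.13 from its other probe.

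On the lower side Ddx6, the helicase of P-bodies, had 1.46 and 1.67 in input and 0.219 and 0.220 in PABP1 IP, a difference of -2.83 ± 0.19 (adjusted p = 0.000898). Cnot3, a regulatory subunit of CCR4-NOT, had 26.9 and 24.8 against 5.72 and 3.83, a difference of -2.46 ± 0.25 (adjusted p = 0.00144). Its other probes gave -0.74 and -1.54. Cnot1, the large scaffold of the same complex, chosen after its values were seen, had 5.29 and 5.01 against 1.65 and 1.80, a difference of -1.58 ± 0.15 (adjusted p = 0.00131) that was 0.69 on the spike-in scale; its other probe gave -0.15, which did not pass. Cnot6l, another deadenylase of the complex, was lower as well, with a difference of -2.22 ± 0.18 (limma adjusted p = 0.000994) that was 0.047 on the spike-in scale. Subunits of CCR4-NOT, its deadenylases included, therefore differed in direction on the percentile scale.

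Germ cell and pluripotency mRNAs lay near the median of all genes on the percentile scale, with positions that moved with the processing. PGC markers had 7 of 18 higher and 3 lower, with a position of 0.01 (0.09 with slide as a block and 0.13 within the shared slide), and the higher count was 3 without either input array and 4 without PABP1 IP array 1. Pluripotency markers had 6 of 25 higher and 7 lower, with a position of 0.12 (-0.11 with slide as a block and -0.02 within the shared slide), and the higher count was 1, 2 and 3 without input array 1, input array 2 and PABP1 IP array 1. After normexp the pluripotency markers lay at 0.73, with 12 higher and 5 lower. With no filter on dim probes they lay at 0.72 and the PGC markers at 0.62. These 2 values came through the change of reference described above, while the members' own differences hardly changed. Ifitm3, a small membrane protein of early germ cells, had 37.3 and 32.4 in input and 116 and 113 in PABP1 IP, a difference of 1.72 ± 0.17 (adjusted p = 0.00138). Dppa3, a germ cell and oocyte protein that protects DNA methylation, chosen after its values were seen, had 3.0 and 2.91 against 7.09 and 9.30, a difference of 1.46 ± 0.23 (adjusted p = 0.00497). Dazl, whose signal cannot part the endogenous mRNA from the tagged one here, had 0.881 and 0.807 against 0.237 and 0.241, a difference of -1.82 ± 0.26 (adjusted p = 0.00365) that was 0.45 on the spike-in scale; its other probe gave -0.74, which did not pass.

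Pou5f1, the core pluripotency factor OCT4, had 64.0 and 72.3 in input and 178 and 205 in PABP1 IP, a difference of 1.49 ± 0.30 (adjusted p = 0.0101). Its call was lost without input array 1 (adjusted p = 0.0596) and after quantile normalization (0.79, adjusted p = 0.0775). Tdgf1, the NODAL co-receptor Cripto, had 15.2 and 15.8 against 42.7 and 36.3, a difference of 1.35 ± 0.19 (adjusted p = 0.00323). Nr5a2, a nuclear receptor that can stand in for OCT4, had 24.4 and 24.0 against 3.75 and 3.61, a difference of -2.72 ± 0.16 (adjusted p = 0.000861). Pluripotency mRNAs thus lay on both sides of input.

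PABP1 IP was also set against the GFP IP of tagged DAZL. This comparison was added after the data had been seen and shares its PABP1 IP arrays with the one against input, so the values are given side by side only. PABP1 IP was higher than GFP IP in 6184 genes (41.4%) and lower in 3310 (22.2%); leaving out each array in turn gave 5023 to 6016 and 2842 to 2997. Oxidative phosphorylation had 79 of 83 genes higher and 0 lower, with a position of 1.73 (1.93 on slide 1 and 1.67 on slide 2), against 1.08 in the comparison with input. Mitochondrial ribosomal proteins had 69 of 75 higher and 2 lower, with a position of 1.46 (1.65 and 1.37), against 1.03; leaving out GFP IP array 1 took the lower count to 0 and any other array to 1. Cytosolic ribosomal proteins had 44 of 78 higher and 0 lower, with a position of 0.74 (1.14 and 0.30), against 0.11; without PABP1 IP array 2, 72 were higher. Golgins and other scaffolds had 22 of 34 lower and 0 higher, with a position of -2.01 (-2.22 and -1.53), against -2.05.

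Regulatory and non-coding groups are set out the same way. Ubiquitin-conjugating enzymes, at 1.41 against input, were at -0.16 against GFP IP (-0.23 and -0.17), with 12 of 30 higher and 6 lower. Replication-dependent histones, at -1.47 against input, were at -0.10 against GFP IP (0.04 and -0.24), with 9 of 26 higher and 3 lower, or 14 higher without PABP1 IP array 2. The list of poly(A)-binding proteins and their partners, at 0.13 against input, was at -1.22 against GFP IP (-1.17 and -1.18), with 10 of 18 lower and 2 higher; 6 were lower without GFP IP array 1, GFP IP array 2 or PABP1 IP array 2, and 0 were higher without GFP IP array 1 and 1 without PABP1 IP array 1 or GFP IP array 2. Nuclear non-coding RNAs were at -1.54 (-1.73 and -1.32), with 5 of 9 lower, or 2 without GFP IP array 2, against -2.86.

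Probes of the same gene often gave different values. Of 4726 genes read by more than 1 kept probe, every probe was higher in 826 and every probe lower in 611, and in 330 the probes passed the threshold in both directions. The median range between the probes of a gene was 0.907 on the log2 scale, and 855 genes had probes at least 2 apart. Srp9, a small subunit of the signal recognition particle, had probes at 2.56, 3.45 and -5.23, all past the threshold. Grn, which encodes the secreted protein progranulin, had 694 and 740 in input and 10.8 and 17.8 in PABP1 IP on its brightest probe, a difference of -5.69 ± 0.43 (adjusted p = 0.000962), against -0.60 on its other probe (adjusted p = 0.0312). Rif1, a large regulator of replication timing, had -6.17 ± 0.41 against -1.26. Where on the transcripts these probes lie was not analysed here.

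The calls also followed the kind of transcript a probe was designed from, as the accession in the files gives it. Of 15663 probes designed from RefSeq mRNAs, 33.4% were higher, 20.7% were lower and 4.12% were lower at least 4-fold. Of 2319 probes from RIKEN and other full-length cDNAs, 20.8% were higher, 37.2% lower and 15.7% lower at least 4-fold. Probes from predicted mRNAs gave 18.7% higher and 37.7% lower over 732 probes, and those from the Mammalian Gene Collection 21.8% and 39.8% over 953. The share of strongly lower probes was thus greater outside the RefSeq mRNAs in each of these classes; no test was run on it, since probes of a gene share their RNA. Counted only where every kept probe of a gene agreed in its call, a rule added after the data were seen, 3991 genes were higher and 2618 lower. Genes with 1 kept probe meet this rule by default. Among genes with more than 1, it held for 826 higher and 611 lower.

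**Figure D5:**
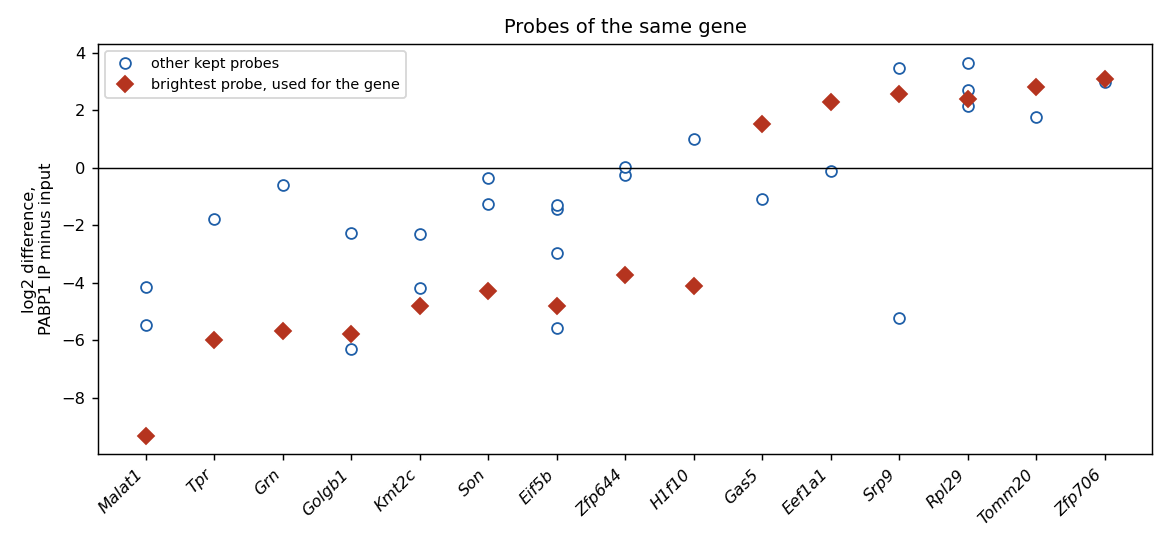
Log2 difference, PABP1 IP minus input, of every kept probe of named genes, with a red diamond for the brightest probe, which stands for the gene in the text, and open circles for the others. The probes of Malat1 lie between -9.32 and -4.15, whereas those of Srp9 span 3.45 to -5.23.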

How the data were processed

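Per the file headers, the scanner files hold spot intensity as Agilent Feature Extraction 9.1.3.1 read it and the processed signal it computed by subtracting background, with flags for spots well above background. A deposited table gives group means of signal, with each array's median as the unit according to its header; no test used it. Positions from it take the mean log2 ratio over the rows that share a gene's accession. The dim-row filter and the choice of the brightest probe were not applied to it, so these positions are a different measure from the others. Its quality scores and standard errors, other columns that the authors deposited, were not used.

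Control and outlier spots were left out, log2 processed signals of a probe's spots were averaged, and the 75th percentile of each array was subtracted. Genes were named from the accession for 22941 of 41174 probes, by symbol for 6654, by synonym for 3094 and as in the file for 8462, through a RefSeq gene table. A probe was kept (21049 in all) where some group had it well above background on each of its 2 arrays, and the brightest kept probe over the 6 arrays stood for its gene. Limma 3.58.1 in R 4.3.3 was fitted to all 6 arrays by group alone, with 3 residual degrees of freedom, two-sided, with Benjamini-Hochberg adjustment over 14927 genes and a threshold of 0.05. Replicate numbers were not taken to pair arrays.

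Members, tests and the 38 gene lists were chosen with earlier results of these data known. A few members were taken out of the lists after values had been seen, because a name pattern had caught unrelated genes, and 13 families were added then. The rule for named genes takes the 12 largest differences in each direction past the threshold with arrays that do not overlap, up to 3 members per list and direction, and a fixed set, of which the text gives some. For the 12 largest, both arrays of the higher group had to be well above background. Genes with only a clone, accession or predicted name were left out of these. On simulated data with 14927 genes, the fit called 4 of 100 genes shifted by 1 on the log2 scale and 43 of 100 shifted by 2, and made 2 false calls. No other genes were shifted there, whereas 4511 genes were called higher and 3543 lower in the data. The adjusted threshold was therefore stricter in the simulation, and these rates cannot be carried over to the comparison. The alternatives tried are in the closing section. No sequence is given, since no file used here holds those of the probes or transcripts.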

Additional observations from a re-analysis of the deposited data

How the results depend on the processing

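Of the 16 gene groups followed in detail, 15 kept the sign of their position under every alternative. The cytosolic ribosomal proteins turned, to -0.48 after cyclic loess and to -0.24 without PABP1 IP array 1.

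The count of higher genes was 12708 and that of lower genes 217 when arrays were scaled to the spike-in controls. Leaving out each array in turn gave between 2824 and 3797 higher genes and between 2175 and 3222 lower. The replicate number as a block gave 3969 and 3114. The deviations of input array 1 and PABP1 IP array 1 from their group means correlated at 0.196, so the pairing is not established. Those of PABP1 IP array 1 and GFP IP array 2, which share a slide, correlated at 0.652. Slide as a block gave 5419 and 3978.

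After normexp background correction the positions were -0.76 for replication-dependent histones, 1.75 for replication-independent histones, -1.68 for nuclear non-coding RNAs, 0.80 for cytosolic ribosomal proteins, 1.76 for oxidative phosphorylation, 1.62 for mitochondrial ribosomal proteins, 1.96 for mitochondrial import, 1.01 for the proteasome, 1.64 for ubiquitin-conjugating enzymes, -0.29 for Zfp proteins, -0.83 for chromatin regulators, -0.18 for SR proteins, 1.65 for snRNP and LSM proteins, -0.37 for kinesins and dyneins, and -0.83 for golgins and scaffolds. With no filter on dim probes, in the same order, they were -0.86, 2.04, -2.25, 0.72, 1.69, 1.64, 2.10, 1.16, 2.02, -0.034, -1.15, -0.088, 1.62, -0.39 and -1.44, and 1.38 for Rab GTPases. The median of all genes was -0.48 there, a shift of -0.61. That change of reference raised each of these positions by as much, while the members' own differences hardly changed.

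Quantile normalization gave 0.98 for replication-independent histones, 0.53 for oxidative phosphorylation, 0.56 for mitochondrial ribosomal proteins, 1.13 for import, 0.17 for the proteasome, 1.12 for ubiquitin-conjugating enzymes, and 0.50 for snRNP and LSM proteins. Cyclic loess gave -1.66 for replication-dependent histones, and 0.68, 0.76, 1.28, 0.31, 1.19 and 0.68 for the last 6 groups. Slide as a block gave 1.00 for oxidative phosphorylation, 0.93 for mitochondrial ribosomal proteins, 0.37 for the proteasome, 0.65 for Rab GTPases, -1.85 for chromatin regulators, and 0.86 for snRNP and LSM proteins. Slide 1 alone gave -1.23 for replication-dependent histones, 0.40 for the proteasome, 0.66 for Rab GTPases, and 0.91 for snRNP and LSM proteins. The mean of a gene's probes gave 1.03 for oxidative phosphorylation, 1.25 for import, 0.89 for Rab GTPases, and -1.03 for SR proteins. Probes well above background on all arrays gave 1.07 for mitochondrial ribosomal proteins and -1.63 for chromatin regulators. Leaving out each array in turn, the positions ranged from -1.51 to -1.23 for replication-dependent histones, 0.40 to 0.55 for the proteasome, 0.66 to 0.79 for Rab GTPases, -1.89 to -1.75 for chromatin regulators, and 0.91 to 1.05 for snRNP and LSM proteins.

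On the spike-in scale these genes named here as lower or below input lay above it: Cnot1 at 0.69, Cnot6l at 0.047, Dazl at 0.45, Eif3c at 0.43, Larp1 at 0.43, Med13l at 0.033, Ndufs1 at 1.31, Pabpc1 at 2.13, Pan3 at 0.35, Rab22a at 0.30, Snrnp200 at 0.15, Trappc9 at 0.78 and Ube2o at 0.12. Pabpc1 turned to 0.62 with slide as a block as well. Others stayed below input on the spike-in scale but no longer passed limma's test. Among them were Ranbp2 (-0.00041, adjusted p = 0.999), Psmd1 (-0.020, 0.972), Meg3 (-0.22, 0.698), H1f3 (-0.40, 0.476) and Neat1 (-0.47, 0.402). On that scale replication-dependent histones had 12 higher and 0 lower, and nuclear non-coding RNAs 3 and 3. Chromatin regulators had 17 higher and 8 lower, and golgins and scaffolds 13 and 6. The cause of these changes was not tested beyond the constant that the scaling adds.

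Leaving out 1 array leaves a group with 1 array, assumed to vary like the others. A description by coding length was not run, since no table of transcripts or proteins was used here. Dim probes limit the lower bounds given as at least N-fold, and 2 arrays per group limit every call.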

Other observations

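Families added after the data had been seen gave the same kinds of values. Ubiquitin-specific proteases, which take ubiquitin off proteins, were lower in 27 of 44 tested genes and higher in 6, with a position of -1.02 (-1.21 with slide as a block and -1.24 within the shared slide); 16 were lower without input array 1 and 15 without input array 2. Usp7, a regulator of p53 stability, had signals of 230 and 212 in input and 36.5 and 31.5 in PABP1 IP, a difference of -2.70 ± 0.16 (limma adjusted p = 0.000861). SMC proteins and cohesin factors, which fold and hold chromosomes, were lower in 15 of 20 and higher in 0, with a position of -1.62 (-1.79 and -1.95). Smc2, a core subunit of condensin, had 4.66 and 6.54 against 0.142 and 0.165, a difference of -5.17 ± 0.34 (adjusted p = 0.000898), with other probes at -5.86 and -0.52. RNA helicases named Ddx or Dhx were lower in 29 of 49 and higher in 4, with a position of -0.84 (-0.99 and -1.03); 17 were lower without input array 1 and 16 without input array 2, and 1 was higher without any single array. Ddx46, a helicase of early spliceosome assembly, had 8.63 and 12.3 against 0.353 and 0.532, a difference of -4.57 ± 0.35 (adjusted p = 0.000962), and its 3 other probes were lower too, from -1.37 to -1.75.

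On the other side, proteins named Tmem, which cross membranes, were higher in 86 of 160 and lower in 18, with a position of 0.78 (0.55 with slide as a block and 0.54 within the shared slide); 8 were lower without input array 1 and 6 without input array 2. Subunits of the BLOC and TRAPP trafficking complexes were higher in 12 of 19 and lower in 3, with a position of 0.97 (0.88 and 0.94). Trappc6b, a small subunit of TRAPP, had 2.49 and 2.20 in input and 19.8 and 18.2 in PABP1 IP, a difference of 3.02 ± 0.16 (adjusted p = 0.000861), while the large subunit Trappc9 had 21.2 and 18.9 against 7.45 and 6.76, a difference of -1.49 ± 0.17 (adjusted p = 0.00179) that was 0.78 on the spike-in scale. Subunits of the V-ATPase proton pump were higher in 12 of 21 and lower in 3, with a position of 0.75 (0.67 and 0.65). Atp6v0e, a very small membrane subunit, had 22.2 and 23 against 157 and 155, a difference of 2.79 ± 0.15 (adjusted p = 0.000861). Mediator, the coactivator of RNA polymerase II, was higher in 12 of 29 genes and lower in 7, with a position of 0.10 (0.23 and 0.27). Its small subunit Med30 had 4.38 and 4.30 against 36.3 and 36.0, a difference of 3.06 ± 0.14 (adjusted p = 0.000861), while the large subunit Med13l had 14.8 and 13.7 against 2.90 and 3.15, a difference of -2.24 ± 0.16 (adjusted p = 0.00091) that was 0.033 on the spike-in scale.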
